A study of Mus musculus with 5 samples.

Results

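The genes described here are 39 genes of homologous recombination, the Fanconi anemia pathway and the ATM/ATR checkpoint, with Brca1 at their head. They were chosen by name and matched by symbol among the 27998 genes of the count tables, and all 39 were found. Their counts were followed in single cells from mouse mammary glands and from 1 tumor of the gland, measured in 5 libraries that the labels give as 3' droplet sequencing. All mice carried Krt14cre, a Cre recombinase under the Krt14 promoter of basal epithelium, with both Trp53 alleles floxed. The BPK genotype was Brca1 wt/flox, Trp53 flox/flox, Krt14cre, and the PK genotype was Brca1 wt/wt, Trp53 flox/flox, Krt14cre. BPK glands received 12 injections into the ducts of PBS/PEG as vehicle (1 library) or of the mutagen 4NQO (2 libraries). PK glands received 12 injections of 4NQO (1 library). The BPK tumor arose after 24 injections of 4NQO (1 library). Thus no group had an intact Trp53 gene in cells reached by the Cre, and no PK gland received vehicle. Ages and the number of animals per library are not given in the labels.

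Homologous recombination repairs broken DNA by copying an intact sister chromatid, and it is used mainly in S and G2 phase, when that sister exists. BRCA1 with its partner BARD1 starts the process, PALB2 links BRCA1 to BRCA2, and BRCA2 loads the recombinase on the resected strand. The Fanconi proteins free replication forks from crosslinked bases, and the kinases ATM and ATR signal breaks and stalled forks to CHEK2 and CHEK1. In the mammary gland, inherited loss of BRCA1, BRCA2 or PALB2 predisposes to cancer. The agent 4NQO leaves bulky adducts on bases that block replication forks.

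The 5 libraries differed in depth and in cell makeup. Median depth per barcode was 2523 to 15195.5 UMIs (molecules counted by their unique identifiers), with 27383717 to 64169843 UMIs per library, and 31481 of 34526 barcodes were kept. Clusters were made without the 39 genes. Of the kept cells of BPK 4NQO replicate 2, 70.6% fell in clusters of which at least 80% came from that library, and 61.5% of the tumor cells did likewise. Replicate 2 shared at most 2 cell barcodes with any other library, whereas the other pairs shared 26 to 107. Whether its chemistry was that of the other libraries was not tested, and replicate 2 enters every group contrast. Luminal alveolar, luminal hormone-sensing and basal cells, named by their markers, were found in all 4 gland libraries. In the tumor, 1251 of 1512 epithelial cells were keratinocyte-like. The deleted exons of Brca1 are not given in the labels, so these 3' counts give no check of the Brca1 genotype.

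Because the pathway works in replicating cells, cycling cells were set apart in every library. A cell was called cycling when it held at least 3 of 36 gate genes of S phase and G2/M, none of them among the 39, at a minimum of 5 gate UMIs per 10000 UMIs. Among epithelial cells (clusters with Epcam in at least 50% of cells) the share of cycling cells was 19.9% in BPK vehicle (1226 of 6161 cells, exact Clopper-Pearson 95% interval 18.9% to 20.9%). It was 7.06% in PK 4NQO (356 of 5045, 6.36% to 7.80%). The share was 5.70% in BPK 4NQO replicate 1 (261 of 4581, 5.04% to 6.41%) and 8.29% in replicate 2 (209 of 2521, 7.24% to 9.44%). In the tumor it was 46.7% (706 of 1512, 44.2% to 49.2%). Cells thinned to 2000 UMIs each, with the 48 to 742 shallower epithelial cells of each library left out, gave 13.9%, 4.81%, 4.44%, 7.66% and 31.8% in the same order. Cycling cells were deeper, with a median of 6297 to 40518 UMIs, against 2991.5 to 20138 in non-cycling epithelial cells. The class is a range of a score, and 55 to 298 epithelial cells per library lay near its limit, between 3 and 8 gate UMIs per 10000.

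The promoters of the genes were read for the motifs of cell-cycle transcription, since most of the 39 genes were higher in cycling cells. RefSeq promoters (GRCm38.p6) matched 29 of the 39 genes. No entry was found for Rad51d, Xrcc2, Fancd2, Exo1, Rbbp8, Rad50, Nbn, H2afx, Tipin and Wee1. The window was the 250 bases before the transcription start, on both strands. An E2F site, counted as TTTCCCGC, TTTCGCGC, TTTGCCGC or TTTGGCGC, was present in 6 of the 29 promoters (20.7%), against 2.16% of 27025 genes and 2.72% of 17492 protein-coding genes. The 6 were Brca2, Bard1, Fancg, Chek2, Topbp1 and Mdc1. The CCAAT box occurred in 18 of 29 (62.1%), against 37.5% of all genes and 39.5% of coding genes. The cell-cycle element TTTGAA (CHR) occurred in 1 of 29, Bard1, against 18.3% of all genes. No motif contains another by its letters. The Brca1 promoter and the 6 promoters with an E2F match are shown 5′ to 3′ on the strand of the gene, with E2F and CCAAT matches of either strand in capitals. They lie in GRCm38 at chr11:101551956-101552205 (minus strand) for Brca1, chr5:150522371-150522620 (plus) for Brca2, chr1:71102973-71103222 (minus) for Bard1, chr4:43010302-43010551 (minus) for Fancg, chr5:110839733-110839982 (plus) for Chek2, chr9:103305077-103305326 (plus) for Topbp1 and chr17:35841248-35841497 (plus) for Mdc1.
Brca1: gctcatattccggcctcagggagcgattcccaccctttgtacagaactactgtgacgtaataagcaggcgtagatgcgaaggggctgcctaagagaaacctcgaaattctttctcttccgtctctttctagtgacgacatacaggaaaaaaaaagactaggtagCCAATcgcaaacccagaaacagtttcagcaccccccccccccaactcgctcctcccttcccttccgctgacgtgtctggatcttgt
Brca2: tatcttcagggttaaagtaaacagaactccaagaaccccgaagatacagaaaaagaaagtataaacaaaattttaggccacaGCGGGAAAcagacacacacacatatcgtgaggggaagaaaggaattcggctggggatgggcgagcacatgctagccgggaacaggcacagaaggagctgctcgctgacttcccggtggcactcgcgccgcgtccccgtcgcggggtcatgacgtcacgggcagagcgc
Bard1: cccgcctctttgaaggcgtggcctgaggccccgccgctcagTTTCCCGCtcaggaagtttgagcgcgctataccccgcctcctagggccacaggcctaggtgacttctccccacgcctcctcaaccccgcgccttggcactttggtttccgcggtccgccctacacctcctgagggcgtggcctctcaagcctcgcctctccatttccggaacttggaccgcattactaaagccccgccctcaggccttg
Fancg: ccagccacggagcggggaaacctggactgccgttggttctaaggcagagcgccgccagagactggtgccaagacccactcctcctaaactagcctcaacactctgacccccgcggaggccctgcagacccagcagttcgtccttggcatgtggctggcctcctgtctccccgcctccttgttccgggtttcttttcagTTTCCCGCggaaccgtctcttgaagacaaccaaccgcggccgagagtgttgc
Chek2: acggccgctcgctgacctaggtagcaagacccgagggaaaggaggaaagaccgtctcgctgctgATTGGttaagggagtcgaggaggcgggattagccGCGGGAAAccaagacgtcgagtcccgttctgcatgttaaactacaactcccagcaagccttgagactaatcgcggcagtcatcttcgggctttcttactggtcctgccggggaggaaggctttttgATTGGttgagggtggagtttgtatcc
Topbp1: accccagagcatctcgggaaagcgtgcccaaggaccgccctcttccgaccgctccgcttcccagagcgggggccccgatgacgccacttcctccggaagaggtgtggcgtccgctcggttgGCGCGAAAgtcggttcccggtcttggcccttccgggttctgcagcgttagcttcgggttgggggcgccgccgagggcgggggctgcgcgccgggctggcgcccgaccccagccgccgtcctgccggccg
Mdc1: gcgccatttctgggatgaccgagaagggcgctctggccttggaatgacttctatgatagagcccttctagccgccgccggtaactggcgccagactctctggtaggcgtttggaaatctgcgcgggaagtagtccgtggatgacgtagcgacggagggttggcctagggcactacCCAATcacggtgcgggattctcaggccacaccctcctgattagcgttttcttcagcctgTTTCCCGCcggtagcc
The Brca1 window held 1 CCAAT box and no E2F match. From the RefSeq start, the E2F match began at position -16 for Mdc1 and at -52 for Fancg. It lay farther out at -129 for Topbp1, -152 for Chek2, -168 for Brca2 and -209 for Bard1. In the annotation used for gene positions, Bard1 (71103146), Fancg (43010506), Topbp1 (103305215) and Chek2 (110839979) begin inside their windows. Their distances thus depend on the start chosen. Of the 6 genes with a match, Brca2, Bard1, Chek2 and Topbp1 were called higher in cycling cells (below), and Fancg and Mdc1 were not. Among genes called higher, Brca1, Rad51ap1, Fanci, Brip1 and Chek1 had no E2F match in their windows. Whether the motifs go with the rise in cycling cells was not tested. A match is a string of letters and was not tested for binding.

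Brca1 (ENSMUSG00000017146, mm10 chromosome 11, 101488764 to 101551955, minus strand) was found mainly in cycling cells. In counts per 1000000 UMIs (CPM) of cycling epithelial cells it stood at 5.90 in BPK vehicle, 4.04 in PK 4NQO, 6.81 and 15.9 in BPK 4NQO replicates 1 and 2, and 3.72 in the tumor. In non-cycling epithelial cells it stood at 0.365, 0.646, 0.540, 1.17 and 0.205 CPM in the same order. The lowest cycling library lay above the highest non-cycling library, so the groups did not overlap. These levels rest on 77, 11, 20, 26 and 107 UMIs in cycling cells and on 14, 17, 18, 13 and 4 in non-cycling cells. Brca1 rose by a log2 fold change of 3.54 (SE 0.27, edgeR adjusted p = 5.0e-05) in a fit with library as block over 5 libraries. Cycling cells held 96.4% of the Brca1 UMIs of tumor epithelium (95% interval 91.0% to 99.0%) and 39.3% of those of PK 4NQO (21.5% to 59.4%). Those cells held 59.6% and 9.37% of all UMIs of the same epithelium. The plot of Brca1 by library and state shows that replicate 2 of BPK 4NQO had the highest level in both states.

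**Figure D1:**
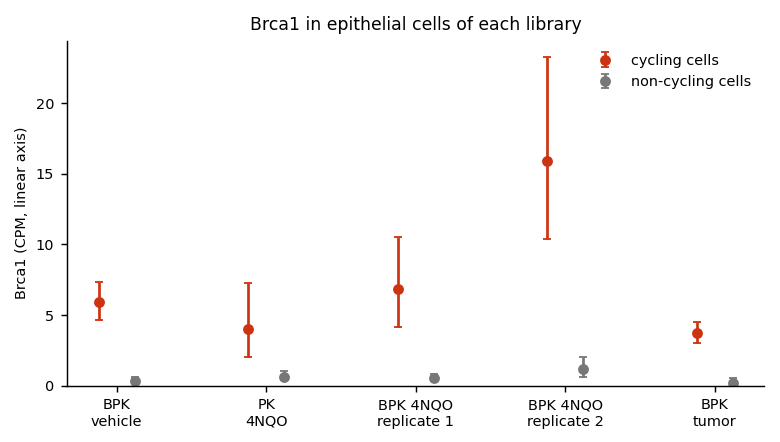
Brca1 level (CPM, linear axis) in cycling and non-cycling epithelial cells of the 5 libraries, each point 1 library with its exact Poisson 95% interval, which covers counting error only. Cycling cells sit between 3.72 and 15.9 CPM and non-cycling cells between 0.205 and 1.17 CPM.

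Over all cells of a library Brca1 was scarce, at 1.65 CPM in BPK vehicle, 1.07 in PK 4NQO, 1.07 and 4.69 in BPK 4NQO replicates 1 and 2, and 2.22 in the tumor. In T cells of BPK 4NQO replicate 2, of which 22.6% were cycling, Brca1 reached 26.0 CPM on 26 UMIs. The T cells of PK 4NQO and BPK 4NQO replicate 1 held 1 and 3 Brca1 UMIs. Over 30 sums of a library and a class, genes with a pattern most like that of Brca1 included Kif15 (Pearson r = 0.881), Zwilch (0.876), Casc5 (0.862) and Blm (0.854), of 13597 genes ranked. These r describe sums that share libraries and depth. Kif15 is a mitotic kinesin, and Zwilch and Casc5 act at the kinetochore. Among the other genes of the group, Clspn ranked 15 and Chek1 ranked 41 on this measure, while Bard1 ranked 724 and Brca2 1257.

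Most of the 39 genes rose with cycling in epithelial cells. Of 36 genes with enough counts to be tested, 29 were higher in cycling cells and 1, Wee1, was lower (edgeR quasi-likelihood test, Benjamini-Hochberg adjusted p under 0.05). Over all 12961 genes tested 10.3% were higher and 9.32% lower. The median log2 fold change was 1.92 over the 36 genes and -0.04 over all genes. A total of 32 of the 39 genes were higher in cycling cells in 5 of 5 libraries, against 15.9% of genes with at least 10 UMIs, and 23 did not overlap between the states, against 2.75%. Rad51b, Xrcc3 and Atrip were too scarce for the test, and Atr, Fancc, Fance, Fancg, Mdc1 and Rad51d did not pass it. The annotated exons of Atrip overlap those of Trex1 on the same strand, so its counts are uncertain.

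**Figure D2:**
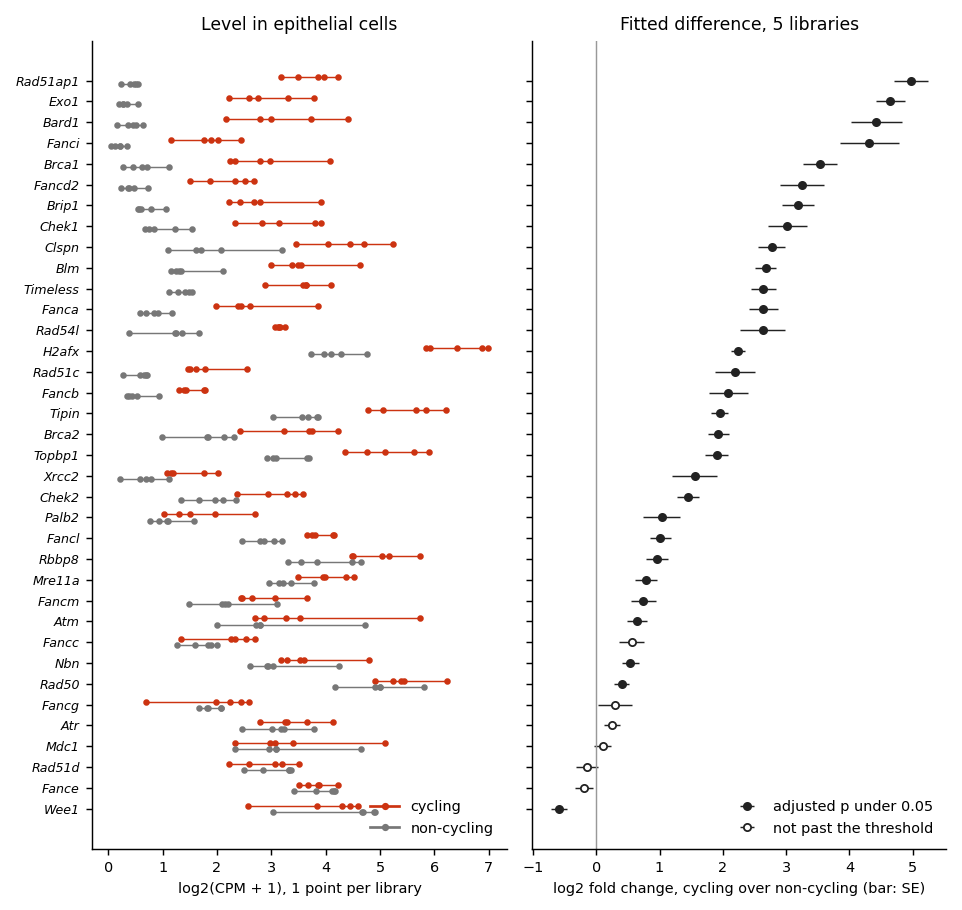
Left, level of the 36 tested genes in cycling and non-cycling epithelial cells, as log2(CPM + 1), with 1 point per library and a line over the range of the 5 libraries. Right, log2 fold change of cycling over non-cycling cells with its SE, filled where the adjusted p was under 0.05; Rad51ap1 is at the top with 4.97 and Wee1 at the bottom with -0.59.

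Among the partners of BRCA1, Bard1 showed the widest gap. Bard1 was at 5.90, 6.98, 12.3, 20.1 and 3.48 CPM in cycling epithelial cells (BPK vehicle, PK 4NQO, BPK 4NQO 1 and 2, tumor) and at 0.287, 0.114, 0.420, 0.361 and 0.565 in non-cycling cells. Its states did not overlap, and it rose by 4.43 on the log2 scale (SE 0.41, edgeR adjusted p = 0.00015). Brca2 was at 12.4, 8.45, 11.9, 17.7 and 4.38 CPM in cycling cells and at 3.39, 2.58, 2.52, 3.97 and 0.975 in non-cycling cells. It rose by 1.93 (SE 0.16, edgeR adjusted p = 8.0e-05), and every library was higher in its cycling cells. Palb2 was at 1.84, 1.47, 1.02, 5.49 and 2.89 CPM in cycling cells and at 0.705, 0.912, 1.11, 1.99 and 1.13 in non-cycling cells. Palb2 rose by 1.03 (SE 0.30, edgeR adjusted p = 0.042) with overlapping states, and was lower in cycling cells of BPK 4NQO replicate 1. The Palb2 call did not hold with DESeq2 (log2 1.00, adjusted p = 0.053).

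The genes of strand invasion and of the recombinase paralogs differed in the size of their change. Rad51ap1 (mm10 chromosome 6, 126923050 to 126939587), which aids strand pairing, had the largest fold change of the 39 genes in epithelium. It stood at 13.6, 8.09, 14.6, 17.7 and 10.3 CPM in cycling cells and at 0.313, 0.418, 0.390, 0.181 and 0.462 in non-cycling cells (log2 4.97, SE 0.27, edgeR adjusted p = 8.8e-06). Rad54l, a motor protein that remodels the joint between the strands, was even in cycling cells, at 8.50, 7.35, 7.83, 7.94 and 7.66 CPM. In non-cycling cells it was at 1.36, 1.56, 1.35, 2.17 and 0.308 CPM, lowest in the tumor, and it rose by 2.63 (SE 0.35). Of the paralogs, Rad51c rose by 2.19 (SE 0.32) and Xrcc2 by 1.55 (SE 0.36, edgeR adjusted p = 0.019). Rad51d did not pass, with a log2 difference of -0.15 (SE 0.18) and levels of 3.66 to 10.4 CPM in cycling and 4.62 to 9.31 in non-cycling cells. Rad51b had 0 to 11 UMIs and Xrcc3 2 to 26 UMIs in any library and state.

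Within the Fanconi pathway, the clamp and the helicase had larger fold changes than the core complex. FANCI and FANCD2 form the clamp that is ubiquitinated at crosslinks. Fanci was at 3.06, 4.41, 2.72, 1.22 and 2.37 CPM in cycling cells and at no more than 0.271 CPM in non-cycling cells (log2 4.32, SE 0.46). Fancd2 was at 4.75, 4.04, 5.45, 1.83 and 2.64 CPM in cycling cells and at 0.181 to 0.667 in non-cycling cells (log2 3.25, SE 0.35). These levels rest on few counts, with 6, 1, 3, 3 and 3 Fanci UMIs in non-cycling cells. In BPK 4NQO replicate 2, Fanci had 2 UMIs in cycling cells, and Fancd2 had 3 in cycling and 2 in non-cycling cells. Fold changes were not tested against each other. Brip1, the helicase that binds BRCA1, was at 3.68 to 14.0 CPM in cycling cells and 0.462 to 1.08 in non-cycling cells (log2 3.19, SE 0.25). In the core complex, Fanca rose by 2.64 (SE 0.23), Fancb by 2.09 (SE 0.31), the ligase subunit Fancl by 1.01 (SE 0.16) and the fork remodeler Fancm by 0.75 (SE 0.20). The core genes Fancc, Fance and Fancg did not pass, with 0.56 (SE 0.20), -0.19 (SE 0.14) and 0.30 (SE 0.27). Fance is the plainest case, at 10.4 to 17.7 CPM in cycling cells and 9.70 to 17.1 CPM in non-cycling cells, with the states fully overlapping.

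The nucleases and helicases that resect DNA ends also fell into separate groups by size of change. Exo1, a nuclease of long-range resection, was at 4.98, 3.68, 8.85, 12.8 and 5.74 CPM in cycling cells and at 0.152 to 0.452 in non-cycling cells. It rose by 4.65 (SE 0.23, edgeR adjusted p = 5.9e-06). Blm, the helicase of Bloom syndrome, was at 6.98 to 23.8 CPM in cycling cells and 1.23 to 3.34 in non-cycling cells (log2 2.67, SE 0.17). The complex that first binds the break had smaller fold changes. Mre11a rose by 0.79 (SE 0.17), Nbn by 0.54 (SE 0.14) and Rad50 by 0.41 (SE 0.12, edgeR adjusted p = 0.043). Rad50 was at 29.0 to 74.5 CPM in cycling and 17.0 to 55.2 CPM in non-cycling cells, and the states overlapped. Rbbp8 (CtIP), the cofactor of that complex, rose by 0.97 (SE 0.17). With non-cycling cells of matched depth, 26 of the 29 higher calls were kept, and Nbn, Palb2 and Rad50 were the 3 that were lost.

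In the checkpoint, the effector kinase of ATR and its adaptors changed with cycling while ATR itself did not pass. Chek1 was at 7.81, 4.04, 12.9, 14.0 and 6.06 CPM in cycling cells and at 0.600 to 1.90 in non-cycling cells (log2 3.01, SE 0.31). Clspn, the adaptor that carries the signal from ATR to CHEK1, was at 9.92 to 36.6 CPM in cycling cells and 1.13 to 8.13 in non-cycling cells (log2 2.77, SE 0.21). Topbp1, the activator of ATR, rose by 1.90 (SE 0.18). Atr was at 5.95 to 16.5 CPM in cycling and 4.52 to 12.7 in non-cycling cells (log2 0.25, SE 0.13, edgeR adjusted p = 0.20). On the ATM side, Chek2 rose by 1.45 (SE 0.18) and Atm by 0.65 (SE 0.16), and Mdc1, the scaffold at marked chromatin, did not pass (0.10, SE 0.14). H2afx, the histone that ATM and ATR phosphorylate, was at 84.5, 59.2, 125, 56.8 and 116 CPM in cycling cells and at 16.0, 14.6, 18.5, 12.2 and 25.9 in non-cycling cells (log2 2.24, SE 0.11). The fork protection genes Timeless (log2 2.64, SE 0.19) and Tipin (1.95, SE 0.13) rose as well.

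Wee1, the kinase that holds CDK1 inactive before mitosis, went the other way. It was at 20.8, 18.7, 13.3, 23.2 and 4.94 CPM in cycling cells and at 28.7, 24.3, 24.6, 29.0 and 7.13 in non-cycling cells. Every library was lower in its cycling cells, although the ranges overlapped because the tumor was low in both states. Wee1 fell by 0.59 on the log2 scale (SE 0.12, edgeR adjusted p = 0.012). Without the minimum share of gate UMIs the change was -0.54 (adjusted p = 0.059).

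Neighbouring pathways gave a scale for these counts. In the same fit 10 of 26 other recombination and Fanconi genes were higher in cycling cells and none of them lower, led by Rad54b (log2 4.23), Eme1 (4.01) and Gen1 (2.70). Of 17 other checkpoint genes 14 were higher, led by Cdc25c (5.56), Ticrr (3.23) and Cdc25b (3.20). Of 14 end-joining genes 3 were higher: Polq (4.04), Parp1 (0.77) and Rif1 (0.53). All 18 genes of replication licensing and synthesis tested were higher, led by Pole (3.68), Mcm5 (3.51) and Mcm10 (3.11). The median log2 fold changes were 0.30, 1.16, 0.24 and 2.23 in these 4 lists, with 10.3% of all genes called higher.

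The rise was also seen within each gland cell class and outside the epithelium. In luminal alveolar cells 19 of 30 tested genes were higher in cycling cells and Wee1 was lower (8.66% and 7.24% of all genes). In luminal hormone-sensing cells 19 of 30 were higher and 0 lower (9.73% and 9.49% of all genes), and in basal cells 15 of 22 were higher and 0 lower (16.4% and 13.3%). Of 20 genes tested in all 3 classes, 10 were called higher in each: Brca2, Rad51ap1, Chek1, Chek2, Topbp1, Clspn, Blm, Mre11a, H2afx and Tipin. The share of all genes called higher in all 3 classes was not counted, so this overlap has no background beside it. Brca1 rose by 3.59 (SE 0.42) in alveolar and by 2.88 (SE 0.55) in hormone-sensing cells, and was too scarce to test in basal cells. Rbbp8 rose by 0.98 in alveolar and by 1.45 in hormone-sensing cells, whereas its difference in basal cells was 0.14 (edgeR adjusted p = 0.55). The difference between classes was not tested. In non-epithelial cells 12 of 26 tested genes were higher (9.37% of all genes), with Brca1 at a log2 fold change of 4.58 (SE 0.50). There, Timeless (0.36, edgeR adjusted p = 0.29) and Chek2 (-0.06, adjusted p = 0.95) did not pass.

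Rad51ap1, Chek2 and Timeless were high in non-cycling endothelial cells and in a cluster that carried pericyte and endothelial genes together, which is given as a description with no test because classes come from clusters. In non-cycling endothelial cells Rad51ap1 was at 23.4, 31.7, 42.1, 20.7 and 9.50 CPM in BPK vehicle, PK 4NQO, BPK 4NQO 1 and 2, and tumor. Chek2, on mm10 chromosome 5 from 110839979 to 110874145, stood at 48.2, 42.1, 70.9, 56.9 and 12.1 CPM there. Timeless, on chromosome 10 from 128232065 to 128252941, stood at 46.2, 33.1, 33.1, 34.5 and 32.8 CPM. In the alveolar, hormone-sensing, basal, keratinocyte-like, fibroblast, macrophage and T cells of libraries with at least 100 such cells, these genes were at most 1.93, 6.49 and 3.04 CPM. Of 34 genes ranked over these 8 classes, these 3 had every endothelial library above the 7 other classes, against 2.44% of 16166 genes. Pericytes were not in that ranking. In pericytes Rad51ap1 had 24, 12, 44 and 2 UMIs in BPK vehicle, PK 4NQO and BPK 4NQO 1 and 2, from 3.73 to 33.8 CPM. Timeless was at 66.9, 35.0 and 43.0 CPM in the first 3 of these libraries and had 7 UMIs in BPK 4NQO replicate 2. Thus Timeless was higher in the pericyte class than in endothelial cells in 3 of these 4 libraries. In PK 4NQO this was 35.0 against 33.1 CPM, on 21 and 48 UMIs. Nearly all of the pericyte counts lay in cluster 10, whose leading genes include Rgs5, Abcc9 and Kcnj8 of pericytes and Kdr and Flt1 of endothelium. The other pericyte cluster, 28, had Rad51ap1 and Chek2 at 0 UMIs in each library with at least 30 such cells. Timeless had 1, 0, 3 and 1 UMIs there (0 to 20.1 CPM), below endothelial cells in each of these libraries. The endothelial clusters differed as well, with Chek2 at 66.1 to 104 CPM in cluster 12 and at most 7.52 CPM in cluster 20. In the endothelial cells Brca1 had 0, 0, 1, 1 and 1 UMIs and Exo1 had 0, 1, 0, 0 and 0, whereas Topbp1 was at 13.8 to 28.8 CPM and Tipin at 5.17 to 33.1 CPM. Cycling cells were 2.04% to 4.79% of gland endothelial cells and 30.6% of tumor endothelial cells. In the tumor, 81.5% of endothelial cells lay in cluster 39, in which Epcam was found in 29.0% of cells, against 5.24% to 7.76% in the other endothelial clusters. The largest endothelial cluster was 37 in BPK 4NQO replicate 2 and 12 in the other gland libraries.

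**Figure D3:**
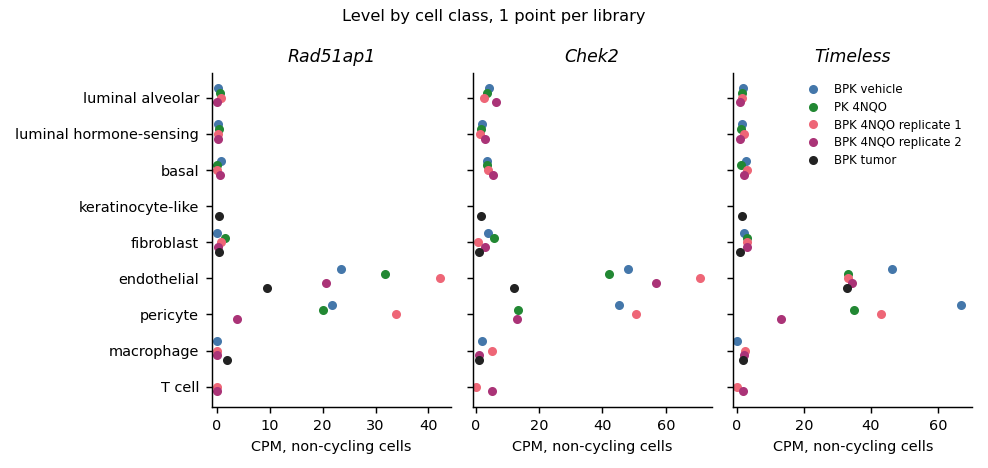
Level (CPM, linear axis) of Rad51ap1, Chek2 and Timeless in non-cycling cells of each class, 1 point per library, for classes of at least 100 such cells. Endothelial cells lie at 9.50 to 42.1, 12.1 to 70.9 and 32.8 to 46.2 CPM, pericytes overlap them, and the other classes shown lie near 0.

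The cycling epithelial cells were then compared with each other by phase. Cycling cells were divided by whether their S or their G2/M gate genes held the larger relative share, and 7 of 27 tested genes were higher in the S-leaning cells and none lower, against 2.45% and 1.41% of 9431 genes. Timeless was at 17.5, 14.2, 19.3, 22.9 and 8.46 CPM in S-leaning cells and at 6.38, 10.4, 12.0, 3.05 and 3.67 CPM in G2/M-leaning cells (log2 1.25, SE 0.20). Every library was higher on its S side. Tipin, its partner, was at 69.6, 66.6, 92.2, 41.3 and 73.9 CPM against 32.2, 20.4, 50.3, 16.3 and 33.1 (log2 1.20, SE 0.11). The other 5 were Clspn (1.20), Rad51ap1 (1.09), Exo1 (0.98), Chek1 (0.95) and Topbp1 (0.65). Brca1 did not pass in this fit (log2 0.79, SE 0.23, edgeR adjusted p = 0.080), nor did Brca2 (0.66, adjusted p = 0.062), Bard1 (0.49, adjusted p = 0.28) or H2afx (-0.59, adjusted p = 0.11). DESeq2 called 4 genes higher, and the fit without the library block called 0. Without BPK vehicle 4 genes were called higher and H2afx lower (-0.86, edgeR adjusted p = 0.025), and H2afx was also called lower with no count filter (-0.57). Among all genes, 71 of 8997 were called higher and 85 lower without BPK vehicle. With no count filter these were 454 and 222 of 18670.

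Whether the cycling difference itself was another in the tumor than in the gland libraries was tested gene by gene. The interaction of cycling and tumor was called for 1 of 36 genes, Rad54l, with a log2 difference of 2.41 (SE 0.54, edgeR adjusted p = 0.039), against 0.447% of genes called higher and 4.07% called lower. Its non-cycling level was 0.308 CPM in the tumor (6 UMIs) and 1.35 to 2.17 CPM in the glands, whereas its cycling level was 7.66 CPM in the tumor and 7.35 to 8.50 in the glands. The call was lost without PK 4NQO (log2 2.33, adjusted p = 0.094) and without BPK 4NQO replicate 2 (2.29, adjusted p = 0.057). With Rad54l, 6 of 36 genes had an unadjusted p under 0.05, against 2692 of 12961 among all genes. Bard1 (-2.18, SE 0.67) and Fancd2 (-1.64, SE 0.56) were among the 6.

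Repeated exposure to the mutagen did not give a called change of any of the 39 genes. In BPK glands with 4NQO against BPK vehicle, 0 of 38 tested genes passed in epithelial cells, against 0.399% of all genes called higher and 0.0731% called lower. In epithelial cells 0 had an unadjusted p under 0.05, and DESeq2 called 0. The count was also 0 in cycling epithelial cells (34 tested, 1 with an unadjusted p under 0.05), alveolar (38, 0), hormone-sensing (38, 2), basal (29, 0), fibroblast (19, 1), endothelial (20, 0) and macrophage cells (8, 0). Of all genes, 0.766% were called higher and 0.0435% lower in cycling epithelial cells, 0.384% and 0.0591% in alveolar, 0.124% and 0.132% in hormone-sensing and 0.398% and 0.0353% in basal cells. In fibroblasts these were 0.249% and 0.0575%, in endothelial cells 0.14% and 0.0201%, and in macrophages 0% and 0%. DESeq2, run on all but the cycling cells, also called 0. Among all genes, an unadjusted p under 0.05 was found for 454 of 11492 in cycling epithelial cells. In hormone-sensing cells and fibroblasts it was found for 335 of 12919 and 335 of 10432. The design has 1 residual degree of freedom. Simulated counts of this comparison gave back 5.1% of 2-fold and 74.7% of 4-fold changes, so most 2-fold changes would not be detectable here. The simulation gave every gene a fixed dispersion (spread between libraries) of 0.05, which was not estimated from these libraries. Whether 74.7% holds at their own spread or for scarce genes was not tested. The largest differences in epithelium were those of Fanci (-1.55, SE 1.23), Fancd2 (-1.32, SE 1.06), Xrcc3 (-1.20, SE 1.16), Rad51ap1 (-1.11, SE 0.80) and Atm (1.09, SE 0.66). The Atm difference was 1.78 without replicate 1 and -0.08 without replicate 2. Brca1 itself was at 1.77 CPM in vehicle and at 1.05 and 3.07 CPM in the 4NQO replicates, which lie on either side of it (log2 -0.08, SE 0.90). Bard1 (0.07, SE 0.90), Palb2 (0.57, SE 0.99) and Brca2 (-0.57, SE 0.68) were likewise within their errors.

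The direction shared by both 4NQO replicates was counted in all cells and in each state. In hormone-sensing cells 21 of 38 genes were below vehicle in both replicates, against 3080 of 13970 among all genes. In their non-cycling cells 7 of 33 were lower and 7 higher, against 2610 and 4223 of 13629 among all genes. In their cycling cells 10 of 36 were lower and 8 higher, against 2650 and 3253 of 11312. The other classes did not have this excess of lower genes. In alveolar cells 10 of 39 genes were higher and 5 lower, against 5253 and 2369 of 14306 among all genes. In basal cells 10 of 34 were higher and 7 lower, against 4639 and 3275 of 12862. In cycling alveolar cells 19 of 37 were higher and 1 lower, against 4551 and 2316 of 11971 among all genes. Cycling cells were 433 of 2167 hormone-sensing cells in vehicle, and made up 2.27% and 6.25% of them in the 4NQO replicates; the part of these shares in the counts was not tested. The largest hormone-sensing cluster was 6 in vehicle, 8 in replicate 1, with 40.5%, and 4 in replicate 2, with 97.2%. Rad51ap1 was at 5.28 CPM in hormone-sensing cells of vehicle and at 0.474 and 1.65 CPM in the replicates, while in cycling cells alone it was at 19.2, 8.99 and 19.1 CPM. The cycling levels of the replicates rest on only 42 and 57 cells, with 555908 and 577428 UMIs over all genes. In epithelial cells as a whole 10 of 39 genes were lower and 5 higher in both replicates, against 19.2% and 32.7% of all genes. Within cycling epithelial cells 16 of 37 were higher and 5 lower, against 39.5% and 20.5%, shares near those of all genes. In a sum over cells, more cycling cells and more RNA per cell cannot be told apart.

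The Brca1 genotype comparison under 4NQO gave no call either. With 1 PK library against 2 BPK libraries, 0 of 38 tested genes passed in epithelial cells, none reached an unadjusted p of 0.05 and DESeq2 made 0 calls, against 0.312% of all genes called higher and 0.0332% called lower. Across cycling epithelial, alveolar, hormone-sensing, basal, fibroblast, endothelial, macrophage and T cells 0 also passed, with 2, 1, 1, 0, 0, 0, 0 and 0 at an unadjusted p under 0.05. DESeq2, not run on the cycling cells, made 0 calls. Among all genes, an unadjusted p under 0.05 was found for 444 of 11492 in cycling epithelial cells. In alveolar and hormone-sensing cells it was found for 314 of 13543 and 228 of 12919. Of all genes, 0.27% were called higher and 0.0348% lower in cycling epithelial cells, 0.244% and 0.00738% in alveolar, 0.139% and 0.0155% in hormone-sensing and 0.159% and 0.0353% in basal cells. In fibroblasts these were 0.00959% and 0.0192%, in endothelial cells 0.0401% and 0%, in macrophages 0% and 0.015%, and in T cells 0% and 0%. Brca1 was at 0.965 CPM in PK and at 1.05 and 3.07 CPM in BPK epithelium (log2 0.77, SE 0.95, edgeR adjusted p = 1.0). In cycling epithelial cells it was at 4.04 CPM in PK and at 6.81 and 15.9 CPM in BPK (log2 1.22, SE 0.82, edgeR adjusted p = 1.0). Both BPK libraries lay above PK, with replicate 2 far above replicate 1. The largest differences in epithelium were those of Exo1 (1.34, SE 1.09), Atm (1.30, SE 0.67), Bard1 (1.21, SE 0.98), Fanca (1.14, SE 0.99) and Chek1 (0.94, SE 0.89). The Atm difference was 1.99 without replicate 1 and 0.14 without replicate 2, and that of Brca1 1.30 and 0.10. The partners of BRCA1 were within their errors, with Palb2 at 0.58 (SE 1.00) and Brca2 at 0.26 (SE 0.71). In cycling epithelial cells 24 of 37 genes were higher and 3 lower in both BPK replicates, against 39.6% and 22.9% of all genes. The cycling cells differed in phase, with 99 S-leaning and 257 G2/M-leaning cells in PK. BPK replicate 1 had 152 and 109 such cells, and replicate 2 had 107 and 102. The part of this difference in the gene counts and in the Brca1 levels was not tested. This contrast and the vehicle contrast share the BPK 4NQO libraries. The PK counts were made with Cell Ranger 3.0.2 and the BPK counts with 5.0.1, so genotype and software version cannot be told apart here.

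The BPK 4NQO replicates differed from each other by transcript length, and both contrasts use them. In non-cycling epithelial cells Atm (longest transcript 9819 bases) was at 25.3 CPM in replicate 2 and 5.88 in replicate 1, and Mdc1 (7335 bases) at 24.1 and 6.78. H2afx (1384 bases) was at 12.2 and 18.5 CPM, and Tipin (1841 bases) at 7.14 and 13.5. Of 32 genes with at least 20 UMIs over both replicates, 25 were higher in replicate 2. The median log2 ratio was 1.15 for the 12 genes of 5 kb or more and -0.38 for the 8 genes under 3 kb. Of these 8, Chek2 (0.91), Nbn (1.33) and Fancb (1.59) were higher in replicate 2. Over 13504 genes these medians were 0.80 and -0.17. Spearman's rho of ratio and length was 0.437 over the 32 genes and 0.481 over all genes, as a description of 2 libraries. The part of this difference in the group contrasts was not tested.

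**Figure D4:**
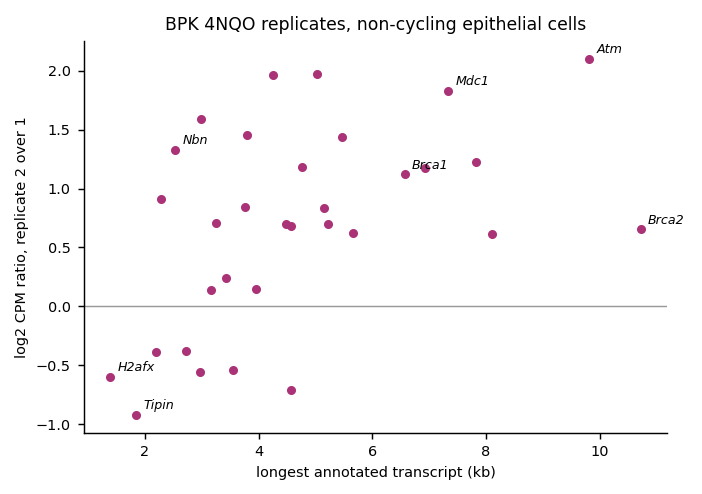
Log2 ratio of CPM in BPK 4NQO replicate 2 over replicate 1, non-cycling epithelial cells, against the length of the longest annotated transcript (kb), 1 point per gene for 32 genes. Atm and Mdc1 lie near 2 at the long end, and Tipin and H2afx lie below 0 at the short end.

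Between the tumor and the exposed BPK glands, 3 of 39 genes were called higher and 0 lower over all epithelial cells. Of all 15572 genes 7.71% were called higher and 7.83% lower, so the share called higher was near that of all genes. H2afx, on mm10 chromosome 9 from 44334694 to 44336077, reached 79.8 CPM in tumor epithelium and at 27.1 and 17.9 in the BPK 4NQO replicates (log2 2.26, SE 0.68, edgeR adjusted p = 0.0096). Rad51ap1 was at 6.33 CPM and at 1.54 and 2.44 (log2 2.19, SE 0.72, adjusted p = 0.019). Tipin, on chromosome 9 from 64281581 to 64305424, reached 38.8 CPM and at 18.3 and 9.60 (log2 1.89, SE 0.64, adjusted p = 0.026). The tumor lay above both replicates for each. An unadjusted p under 0.05 was found for 12 of 39 genes, against 4172 of 15572 among all genes. Cycling cells made up 46.7% of the tumor epithelium and 5.70% and 8.29% of the gland epithelium, and most tumor epithelial cells were keratinocyte-like. In non-cycling cells alone 0 of 37 genes passed, with H2afx at 1.12 (edgeR adjusted p = 0.31), Rad51ap1 at 0.94 (0.79) and Tipin at 0.71 (0.58). The share of all genes called in that fit is not given here, so this 0 has no background beside it. By direction, 7 of 37 genes, H2afx among them, were above both replicates in non-cycling cells and 23 below both. Among all genes these were 3918 and 8141 of 15326. In cycling cells H2afx was at 116 CPM in the tumor and at 125 and 56.8 in the replicates, so the tumor lay between them. DESeq2 kept H2afx alone of the 3 (adjusted p = 0.0080).

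**Figure D5:**
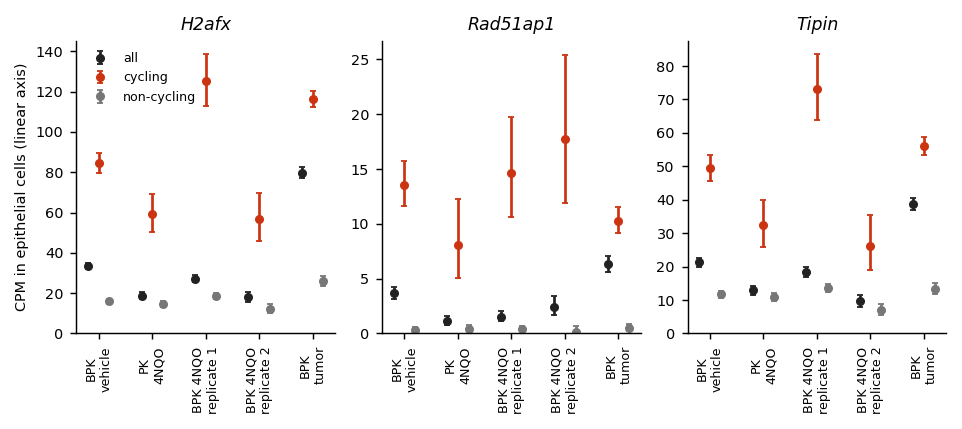
Level (CPM, linear axis) of H2afx, Rad51ap1 and Tipin in all, cycling and non-cycling epithelial cells of each library, with exact Poisson 95% intervals for counting error only. Over all cells the tumor is highest, at 79.8, 6.33 and 38.8 CPM. In cycling cells it lies below BPK 4NQO replicate 1 and above replicate 2 for H2afx and Tipin, and below both for Rad51ap1.

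Within cycling epithelial cells the tumor was compared with the same replicates. On the CPM scale 28 of 38 genes were below both BPK 4NQO replicates and 1 was above both, against 55.9% and 23.5% of all genes. In the fit, Atm was the 1 gene of 34 that passed, and it fell by 1.86 on the log2 scale (SE 0.65, edgeR adjusted p = 0.032), against 9.55% of genes called lower and 5.36% called higher. Atm was at 5.46 CPM in the tumor, at 10.6 in replicate 1 and at 51.9 in replicate 2, where long transcripts were high. The genes Bard1 (-1.63, SE 0.67, adjusted p = 0.087), Brca2 (-1.18, SE 0.64, adjusted p = 0.24) and Brca1 (-0.99, SE 0.71, adjusted p = 0.41) did not pass. Over all epithelial cells Brca1 differed by 0.76 (SE 0.84), Bard1 by 0.66 (SE 0.84), Palb2 by 0.86 (SE 0.88) and Brca2 by -0.05 (SE 0.71). The largest differences that did not pass there were those of Atrip (-2.79, SE 1.45), Fanci (2.57, SE 1.09) and Fancd2 (1.98, SE 0.95). Among endothelial cells H2afx was at 75.1 CPM in the tumor and at 21.3 and 13.4 in the replicates (log2 2.18, SE 0.70, edgeR adjusted p = 0.046), 1 of 22 genes called higher against 1.74% of all genes. That call was lost with DESeq2 (adjusted p = 0.33), when the count filter was dropped (0.069) and when only the compared libraries were fitted (0.055). In non-cycling endothelial cells it was at 38.9 CPM and at 18.5 and 9.48, and the difference did not pass (1.52, adjusted p = 0.29). Keratinocyte-like cells (12 genes tested), fibroblasts (21) and macrophages (8) gave 0 calls between the tumor and the glands. An unadjusted p under 0.05 was found for 0, 4 and 0 genes. Among all genes it was found for 346 of 7267, 1352 of 10884 and 303 of 7261. DESeq2 made 0 calls there too. Of all genes, 0.234% were called higher and 0.275% lower in keratinocyte-like cells, 1.41% and 1.35% in fibroblasts, and 0.771% and 0.0275% in macrophages.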

How the data were processed

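Single-cell 3' libraries of 4 mammary gland samples and 1 tumor were deposited as UMI counts per gene and barcode. The deposited counts were made with Cell Ranger 3.0.2 (PK 4NQO) or 5.0.1 (the others), per the file headers, and the build was mm10, per the submitters' processing notes. Barcodes with at least 300 genes and at most 20% mitochondrial UMIs were kept, and 2070 likely doublets were removed by score (0.8% per 1000 barcodes). Cells were clustered with scanpy 1.11.5 on 2000 variable genes without the 39 genes and the cycle genes (30 components, 20 neighbors, Leiden resolution 2), giving 45 clusters. Classes were rebuilt from markers (at least 3 markers in 25% of cells), so names may differ from those of the study. Counts were summed per library, class and state (at least 20 cells for a cycling sum and 30 for a group contrast) and tested with edgeR 4.0.16 (quasi-likelihood, filterByExpr, TMM, Benjamini-Hochberg over all genes, threshold 0.05) in R 4.3.3, with DESeq2 1.42.0 as an alternative. The SE of a fold change is its size over the square root of F. Cycling contrasts carry library as block and leave out the gate genes. Group contrasts take their spread from the 2 BPK 4NQO libraries alone. The labels do not say that these came from separate animals, so p-values measure the spread between these libraries, which may be technical. Intervals cover counting error only. The fits were tested on simulated data.

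The 39 genes and all lists were chosen with earlier results of these data known. Brca1, Brca2, Palb2, Bard1 and every called gene were named, with the called genes of largest and smallest change for cycling, the 5 largest differences elsewhere, and the 3 largest called of each other list. The minimum share of gate UMIs, the cycling-only and non-epithelial contrasts, the ranking by class and the pericyte levels were chosen after seeing the data. Alternatives changed the tool, scaling, filter, doublets, gate, depth, block and libraries. Of the 5 genes most like Brca1 in pattern, which the rule also names, 1 is not reported here.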

Additional observations from a re-analysis of the deposited data

Results flagged for a closer look

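The difference of the cycling effect between the tumor and the gland libraries passed its own test for Rad54l, with a log2 difference of 2.41 (SE 0.54, edgeR adjusted p = 0.039). Rad54l was higher in cycling cells in 5 of 5 libraries. Its level in non-cycling tumor epithelium rests on 6 UMIs, against 24 to 52 UMIs in the gland libraries. The call was lost with at least 5 gate genes (2.08, adjusted p = 0.058), with non-cycling cells of matched depth (2.32, adjusted p = 0.19) and without the minimum share of gate UMIs (1.74, adjusted p = 0.22).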

How the results depend on the processing

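No result changed its direction past the threshold under the alternatives run. The cycling contrast in epithelium called 30 of the 39 genes, and 23 to 29 when a library was left out. Without the replicate block of library it called 20, all higher, and without the minimum share of gate UMIs 22. Over all genes, 262 of 12961 and 728 of 12747 were then called higher, against 1341 of 12961 in the main fit. For S-leaning against G2/M-leaning cells, DESeq2 called 4 genes and the fit with no replicate block 0. Over all 9431 genes, 108 and 2 were then called higher, against 231 in the main fit. The tumor interaction called 0 genes with at least 5 gate genes and 0 with matched depth, and 0 to 1 when a library was left out. Without the minimum share of gate UMIs it called Xrcc3 lower (-2.70, edgeR adjusted p = 0.037) and 1669 genes higher and 1624 lower in all, against 58 and 527. Between tumor and glands, the epithelial count was 0 in non-cycling cells and 1 with DESeq2. The endothelial count was 0 in non-cycling cells, by DESeq2, when the count filter was dropped and when only the compared libraries were fitted. The shares of all genes called in these alternative tumor fits are not given here. The cause of these changes was not tested. The cycling contrasts are paired within library. For the group contrasts, no paired analysis was possible because only the BPK 4NQO group carries replicate numbers. Leaving out 1 BPK 4NQO library leaves the group contrasts no residual degrees of freedom, so these give values with no test: over all tumor epithelium H2afx was then 1.88 to 2.81, Rad51ap1 2.02 to 2.35 and Tipin 1.40 to 2.67 on the log2 scale. Scarce genes limit the rest, since Brca1 had 4 to 18 UMIs in non-cycling epithelium of a library.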
